A study of Mus musculus with 4 samples.

Results

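Ncam1, L1cam, Nrcam, Chl1, Cntn4 and Dscam encode 6 adhesion molecules of the immunoglobulin superfamily, and their transcripts were followed across the cell types of the mouse olfactory epithelium. The genes were taken by name, all 6 were found among the 49671 gene symbols of the count tables, and none was used to sort cells into types. The series holds 4 single-cell RNA sequencing libraries of olfactory epithelium from CD-1 mice, 1 library for each age: the day of birth (P0), P3, P7 and P21, in days after birth. No library carries a transgene, a mutation or a treatment in the labels, and cells were freed with papain and sorted. The sample titles name OSNs, olfactory sensory neurons. The sources used here give neither how cells were selected in that sort nor the number of mice in a library. With 1 library per age, age and library cannot be told apart.

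Cell adhesion molecules of this superfamily carry stacked immunoglobulin domains outside the cell and bind the same or related molecules on neighbouring cells. In the olfactory system, axons of olfactory sensory neurons leave the epithelium, travel in bundles wrapped by ensheathing glia and sort into glomeruli of the olfactory bulb. Adhesion molecules on the axon and on the glia take part in that bundling and sorting. Ncam1 is the neural cell adhesion molecule, whose binding is reduced when polysialic acid is added to it. L1cam, Nrcam and Chl1 belong to the L1 family, whose cytoplasmic tails bind ankyrins and ezrin. Cntn4 (contactin 4, also called BIG-2) is held to the membrane by a lipid anchor, has amyloid precursor-like proteins among its partners and is known for axon sorting in this system. Dscam takes part in self-avoidance of neurites and in netrin signalling.

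The genes lie on 5 chromosomes of build mm10 (GENCODE coordinates for GRCm38). Ncam1 spans chr9:49502136-49798925 on the minus strand, L1cam chrX:73853778-73896105 on the minus strand, and Nrcam chr12:44328885-44601964 on the plus strand. Chl1, at chr6:103510586-103750211, and Cntn4, at chr6:105677660-106699310, are both on the plus strand of chromosome 6. Dscam spans chr16:96590840-97170752 on the minus strand. An exon of L1cam overlaps an exon of Arhgap4 on the same strand, and exons of Ncam1 and Dscam overlap 1 and 2 antisense transcripts. Strand use in counting is not given in the sources used here, so values of these 3 genes may include reads of those neighbours. The libraries read the 3' ends of transcripts and do not separate isoforms.

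RefSeq promoter windows, 250 bases before to 50 after a transcription start, were at hand for 5 of the 6 genes, 7 windows in all; Ncam1 had none. Those of Cntn4, Nrcam and Chl1 are shown because each was highest in a different group of cells in the values below, neurons, horizontal basal cells and glia. Both strands were searched for CAGCTG, the E-box read by neuronal helix-loop-helix factors, for TAATTA, a homeodomain core, and for the Ebf factor motif, which is TCCC and GGGA with any 2 bases between them. Capitals mark the matches. The windows are, on build GRCm38.p6, chr6:106118692-106118991 for Cntn4, chr12:44328635-44328934 for Nrcam and chr6:103510626-103510925 for Chl1, all on the plus strand. That of Cntn4 lies at a transcription start inside the gene, far from the gene's own start at 105677660. Those of Nrcam and Chl1 lie near the starts of their genes.

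Cntn4: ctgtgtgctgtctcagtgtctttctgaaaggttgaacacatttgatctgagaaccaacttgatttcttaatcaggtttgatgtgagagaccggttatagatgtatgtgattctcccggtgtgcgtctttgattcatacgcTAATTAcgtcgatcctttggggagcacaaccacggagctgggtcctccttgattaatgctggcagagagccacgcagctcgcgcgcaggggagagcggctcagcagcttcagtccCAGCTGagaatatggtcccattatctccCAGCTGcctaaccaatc
Nrcam: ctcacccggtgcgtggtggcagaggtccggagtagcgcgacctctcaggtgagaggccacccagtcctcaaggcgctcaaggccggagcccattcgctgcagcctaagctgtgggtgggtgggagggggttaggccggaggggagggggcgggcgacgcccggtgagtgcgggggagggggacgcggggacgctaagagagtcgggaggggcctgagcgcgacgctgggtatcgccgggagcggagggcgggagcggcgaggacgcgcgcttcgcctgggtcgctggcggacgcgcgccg
Chl1: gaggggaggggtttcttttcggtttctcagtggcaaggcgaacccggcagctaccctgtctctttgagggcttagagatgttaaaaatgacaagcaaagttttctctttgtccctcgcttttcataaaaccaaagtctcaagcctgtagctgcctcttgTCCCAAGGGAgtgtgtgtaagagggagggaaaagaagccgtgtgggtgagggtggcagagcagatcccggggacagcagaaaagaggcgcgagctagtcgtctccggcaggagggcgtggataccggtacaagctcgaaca

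The Cntn4 window shown held 2 CAGCTG and 1 TAATTA. Another Cntn4 window, which overlaps it at chr6:106118515-106118814, held 1 CAGCTG, no TAATTA and 4 CpG dinucleotides. The Nrcam window held none of the 3 motifs, and the Chl1 window held 1 Ebf motif. Over 32851 windows of the same length, 16.3% held CAGCTG, 5.29% TAATTA and 0.904% the Ebf motif, so a single match is common for the first of these. The Nrcam window had 37 CpG dinucleotides, the Cntn4 window shown 12 and that of Chl1 13, beside a median of 7 and quartiles of 3 and 20 over all windows. A match is a description of the letters, not a binding site.

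Cells were sorted into types by marker transcripts. Neuronal stages were progenitors (cycling genes, Kit and others), precursors (Neurod1 and Neurog1), immature neurons (Gap43 without Omp), transitional neurons (both) and mature neurons (Omp without Gap43). Cells that met the rules for Gap43 and for Neurod1 plus Neurog1, without Omp, formed a nascent gate. It held 1 to 10 cells per library, under the minimum of 20, and was in no comparison. The other types were ensheathing glia (Fabp7, Sox10 and others), horizontal basal cells (Krt5, Krt14, Krt15, Trp63), which are the reserve stem cells of the epithelium, and microvillar, sustentacular, stromal, mural, endothelial and secretory cells and leukocytes. The 4 libraries kept 9109 cells, with 6844712 to 17770838 unique molecular identifiers (UMIs, 1 per captured transcript) in a library. Mature gates held 305 to 827 cells, immature gates 119 to 647, and glia 35, 62 and 29 cells at P0, P3 and P7 but 6 at P21, where glia are given as values only. Markers not used for sorting followed the labels: 5 transduction genes summed to 8100 to 15363 CPM (UMIs of a gene scaled to a common total of all UMIs of that cell type in that library) in mature neurons and 423 to 719 in immature neurons. A check list for glia reached 1155 to 2178 CPM in glia and 552 to 1000 in stromal cells, where Aqp1 and Matn4 made up most of it, and Aqp1 was at 0 in the glia of P0, P3 and P7. P0 and P3 shared 68 cell barcodes and other pairs of libraries 1 to 9. The 68 cells had a median of 1882 UMIs at P0, where the other cells had 3254, and without all shared barcodes no call on any of the 6 genes changed.

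Ncam1 was the broadest of the 6 genes among neurons and was highest in immature neurons. In progenitors it stood at 22.7, 28.4, 18.5 and 10.2 CPM at P0, P3, P7 and P21, and in precursors at 221, 204, 333 and 285 CPM. In immature neurons it stood at 973, 1267, 1539 and 1682 CPM, in transitional neurons at 755, 1124, 1351 and 1433, and in mature neurons at 609, 841, 944 and 1019. Within every library the order was immature, transitional, mature, precursor, progenitor. Across libraries the ranges of these 3 late stages overlapped, and the P0 library was lowest at each of them. The nascent gate is not in this order. Its 5 cells at P0 held 24 Ncam1 UMIs or 1307 CPM (838 to 1945), above immature neurons there, and in the other libraries it stood below them.

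edgeR, fitted over all genes with the library as a block, tested these steps on summed counts (quasi-likelihood test, Benjamini-Hochberg adjustment, called under 0.05). Ncam1 rose from progenitors to precursors by 3.34 on the log2 scale (SE 0.18, edgeR adjusted p = 9.45e-13), and rose again to immature neurons by 2.28 (SE 0.10, edgeR adjusted p = 8.98e-15). It fell from immature to mature neurons by 0.49 on the log2 scale (SE 0.09, edgeR adjusted p = 9.97e-05), and was lower in mature neurons in 4 of 4 libraries. The plain CPM ratio of mature to immature neurons was 0.606 to 0.664 in the 4 libraries. edgeR's own scaling gave 0.713, since the median ratio over 4727 well-counted genes was -0.26 in log2 CPM and edgeR sets changes relative to the bulk of genes. Over all 10885 genes tested, 29.0% were higher and 28.5% lower in mature than in immature neurons, so a call in either direction was common.

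Outside neurons, Ncam1 was clearest in ensheathing glia, at 347, 310 and 439 CPM in P0, P3 and P7. It fell from mature neurons to glia by 1.36 on the log2 scale (SE 0.21, edgeR adjusted p = 5.31e-08), and the glial range overlapped that of precursors. The 6 glial cells of P21, which were not in the fit, held 18 Ncam1 UMIs or 1508 CPM (894 to 2383), where mature neurons of P21 had 1019. Horizontal basal cells held 6.41 to 30.3 CPM and leukocytes 11.9 to 62.0. Omp, the marker of mature neurons, stood at 16.0 to 143 CPM in the same horizontal basal cells, and Ncam1 values this low were not read as expression. Stromal cells had 47.2 to 92.0 CPM in P0, P3 and P7, with Omp at 21.7 to 86.0. In the glia of P0, P3 and P7, Gap43 stood at 157, 260 and 46.2 CPM, beside 3763, 3310 and 3362 in immature neurons. Whether RNA of neurons added to the glial Ncam1 values was not tested.

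**Figure D1:**
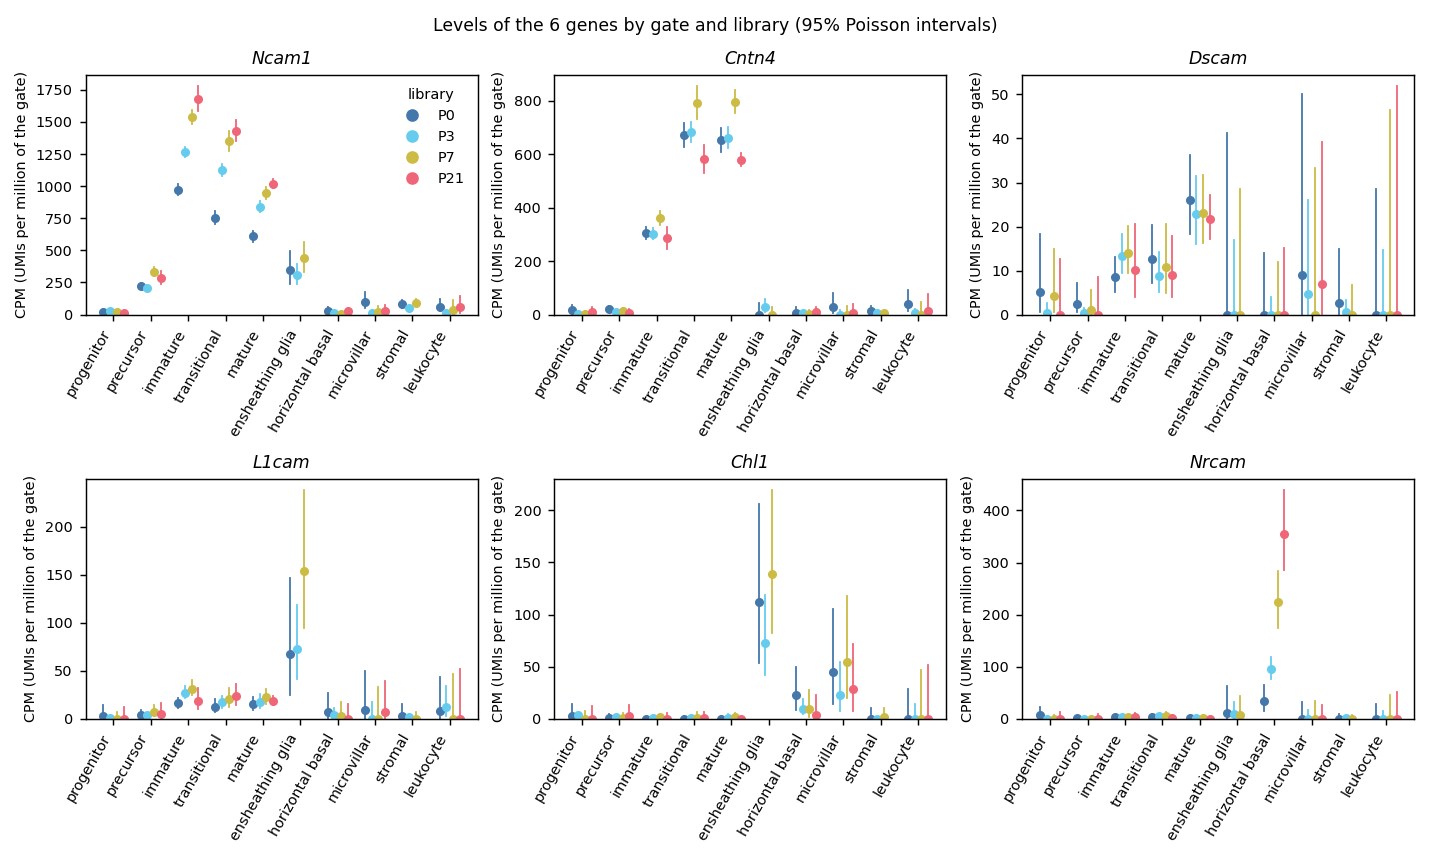
Levels of the 6 genes in CPM (vertical axes, starting at 0, a different scale for each gene) by cell type (horizontal axes) and library (colours), for sums of at least 20 cells, with 95% Poisson intervals as vertical lines. Ncam1, Cntn4 and Dscam stand highest in neurons, L1cam and Chl1 in ensheathing glia, and Nrcam in horizontal basal cells, where it reaches 356 CPM at P21.

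L1cam was higher in ensheathing glia than in any neuronal stage, in each of the 3 libraries with enough glia. It stood at 67.2, 73.1 and 154 CPM in glia of P0, P3 and P7, from 6, 16 and 20 UMIs, and the 6 glial cells of P21 held 3 UMIs (251 CPM, 51.8 to 734). Immature neurons of P0, P3, P7 and P21 had 16.0, 27.1, 31.6 and 18.6 CPM, and mature neurons had 14.9, 17.7, 22.5 and 18.4. The glial range did not overlap that of any other cell type, whereas immature, transitional and mature neurons overlapped. L1cam rose from mature neurons to glia by 2.18 on the log2 scale (SE 0.34, edgeR adjusted p = 4.68e-08), and the ratio was 4.13 to 6.86 in the 3 libraries. Over 691 well-counted genes the median ratio of glia to mature neurons was 0.61 in log2 CPM, so plain CPM ratios of glia to mature neurons run high. Among neurons L1cam rose from precursors to immature neurons by 2.22 (SE 0.27, edgeR adjusted p = 1.87e-07). The later step did not pass: mature against immature neurons differed by -0.19 (SE 0.21, edgeR adjusted p = 0.455), with mature lower in 4 of 4 libraries and every library's interval including 1. From progenitors to precursors the difference was 1.88 (SE 0.55, edgeR adjusted p = 0.0132), which rested on 4 UMIs in progenitors and on the P3 and P7 libraries, without either of which it did not pass (edgeR adjusted p = 0.0509 and 0.0858).

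Chl1, the close homologue of L1, was nearly absent from neurons and was highest in glia. Glia held 112, 73.1 and 139 CPM at P0, P3 and P7, from 10, 16 and 18 UMIs, and the 6 glial cells of P21 held 4 UMIs (335 CPM, 91.3 to 858). Mature neurons of the 4 libraries together held 5 Chl1 UMIs and immature neurons 4. Of all 126 Chl1 UMIs, 38.1% lay in the glial gate, which held 1.45% of the cells. Chl1 passed the filter on low counts in the glia fit only through its glial counts, so its call gives no separate support. The fitted rise from mature neurons to glia was 6.22 on the log2 scale (SE 0.55). That size depends on how few UMIs the neurons held: the ratio was 57.8 (13.6 to 518) at P3 and 76.1 (22.2 to 404) at P7 with exact 95% intervals, and no mature cell of P0 had a Chl1 UMI. Intervals here and below cover counting error only.

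Microvillar cells, chemosensory and ionocyte-type cells near the surface of the epithelium, had the next highest Chl1 levels. They held 45.0, 23.3, 54.3 and 28.1 CPM at P0, P3, P7 and P21, from 4 to 6 UMIs in each library. These levels were 18.4 and 29.8 times those of mature neurons at P3 and P7, and the intervals excluded 1 in 4 of 4 libraries. Horizontal basal cells followed at 4.09 to 22.7 CPM, from 1 to 9 UMIs in each library, and precursors held 1 to 6 UMIs. The library values of glia, microvillar cells, horizontal basal cells and precursors did not overlap, in that order from high to low. The counting intervals of neighbours in this order did overlap, so the order is a description of few counts.

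Of the 5 members that could be tested between glia and mature neurons, 2 were higher in glia (Chl1 and L1cam) and 3 lower (Ncam1, Cntn4 and Dscam). Chl1 passed the filter on low counts only through glia and Dscam only through neurons, so their calls add nothing to their levels. The background was 24.3% higher and 30.6% lower over 8215 genes, and the median member difference was -1.36 on the log2 scale beside -0.18 for all genes.

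Nrcam was highest in horizontal basal cells. Of 352 Nrcam UMIs, 71.9% were in the horizontal basal gate, which held 5.47% of the cells. By library this share was 71.3%, 72.2% and 89.7% at P3, P7 and P21 but 25% at P0, with 9 UMIs, where immature neurons held 10. The level there was 34.0, 95.4, 224 and 356 CPM at P0, P3, P7 and P21, from 9, 87, 70 and 87 UMIs. Mature neurons held 1, 2, 3 and 0 UMIs in the same libraries, and immature neurons 10, 12, 9 and 2, or 2.86 to 4.44 CPM. The lowest horizontal basal value, at P0, lay above the highest value of any other cell type with at least 20 cells.

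A comparison of horizontal basal cells with mature neurons was added after these levels were seen. Nrcam passed the filter on low counts in that fit only through the horizontal basal counts, so its call gives no separate support. The fitted rise was 7.87 on the log2 scale (SE 0.44). With 1 to 3 UMIs in neurons its size is poorly set: the ratios were 45.6 (6.32 to 1999), 75.5 (20.3 to 633) and 123 (40.5 to 612) at P0, P3 and P7. Cntn4, Ncam1, L1cam and Dscam fell in the same comparison, so 1 of the 5 members tested was higher and 4 lower. Calls of members that passed the filter through 1 group alone add nothing to their levels. The background was 29.4% higher and 34.1% lower over 9473 genes.

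The horizontal basal level of Nrcam also differed between the libraries. P21 was 10.4-fold above P0 (5.26 to 23.6, exact 95% interval), 3.73-fold above P3 (2.74 to 5.07) and 1.58-fold above P7 (1.14 to 2.20). In this gate 12.8% of 2567 genes with at least 20 UMIs were higher at P21 than at P0 by at least 1.5-fold with an interval excluding 1, 21.1% were lower, and the median gene was at 0.844-fold. There is no test between ages, and this comparison too was added after the levels were seen. Thinned to 1500 UMIs per cell, the share of horizontal basal cells with an Nrcam UMI was, by library, 3.85% (P0, 0.80 to 10.8), 16.9% (P3, 12.3 to 22.3), 29.5% (P7, 19.7 to 40.9) and 37.1% (P21, 25.9 to 49.5), with Clopper-Pearson 95% intervals. Mature neurons, at the same depth, had shares of 0.345%, 0.669%, 0.613% and 0 of 771 cells, for which a limit of 3 counts is 0.389% and the same interval reaches 0.477%.

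The markers of the gate moved between the same libraries. Trp63, the transcription factor of horizontal basal cells, stood at 249.6, 421, 465 and 928 CPM, and Krt5, a basal keratin, at 613, 937, 1017 and 1324. Krt15, another basal keratin, went the other way, at 6350, 3329, 1767 and 1255 CPM, and Krt14 stayed within 2225 to 2897. In the cells with a Trp63 UMI alone, Nrcam stood at 51.7, 102, 217 and 382 CPM. In the cells of the gate without one it stood at 20.2, 79.0, 255 and 233 CPM, from 3, 20, 16 and 10 UMIs, so P21 was not above P7 there. The part of a changed cell mixture in the Nrcam difference was not tested further. In no library but P0 did 1 cell hold over 7.14% of the Nrcam UMIs of the gate, and at P0 1 cell held 3 of the 9.

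**Figure D2:**
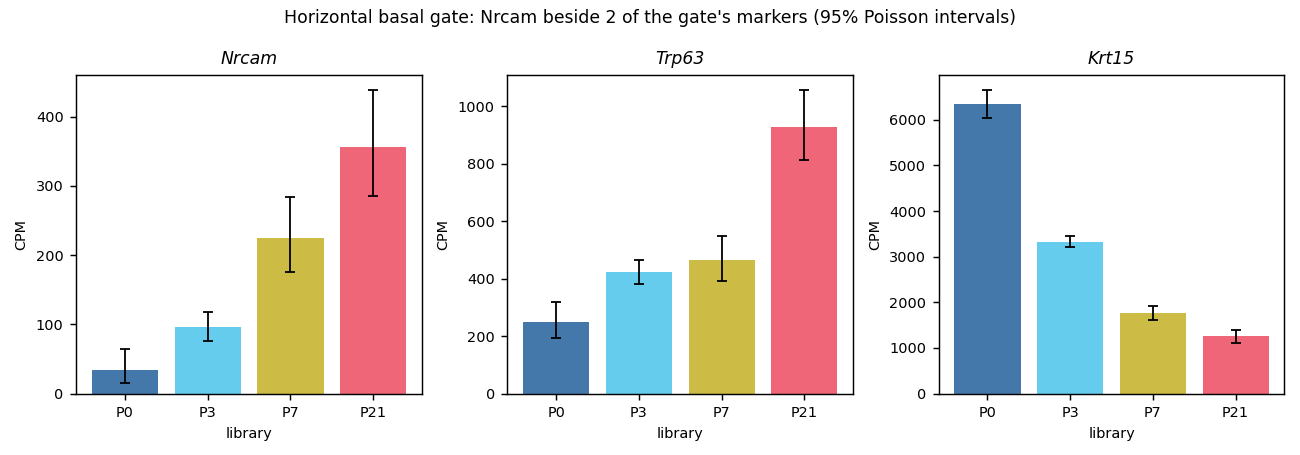
CPM in the horizontal basal gate (bars from 0, 95% Poisson intervals) of Nrcam and of Trp63 and Krt15, which are markers used for the gate, in the 4 libraries. Nrcam goes from 34.0 to 356 CPM and Trp63 from 249.6 to 928 between P0 and P21, while Krt15 goes from 6350 to 1255.

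Cntn4 was highest in the later neuronal stages. It stood at 17.7, 3.21, 2.05 and 10.2 CPM in progenitors at P0, P3, P7 and P21, and at 22.2, 8.20, 13.2 and 6.96 in precursors. In immature neurons it stood at 304, 301, 362 and 285 CPM. Transitional neurons had 670, 681, 792 and 580 CPM and mature neurons 651, 661, 795 and 579. The steps from precursor to immature and from immature to transitional neurons were thus separate in every library, whereas transitional and mature neurons overlapped. Of 11582 Cntn4 UMIs, 45.8% lay in mature, 28.2% in transitional and 21.4% in immature neurons, shares that also depend on the number of cells in each gate. At P3 the transitional gate held 37.1% and the mature gate 31.2%, while at P21 these were 18.1% and 73.6%.

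Cntn4 rose from precursors to immature neurons by 4.57 on the log2 scale (SE 0.18, edgeR adjusted p = 5.82e-16) and from immature to mature neurons by 1.29 (SE 0.10, edgeR adjusted p = 2.46e-10). Comparisons with the transitional stage were added after the levels were seen. The rise was 1.23 from immature to transitional neurons (SE 0.10, edgeR adjusted p = 2.27e-09), and transitional and mature neurons differed by 0.06 (SE 0.10, edgeR adjusted p = 0.712). From progenitors to precursors the difference was 1.08 (SE 0.43, edgeR adjusted p = 0.0504), just short of a call. Glia held 6 Cntn4 UMIs in P3 and none in P0, P7 and P21. Horizontal basal cells held 3.21 to 8.18 CPM and stromal cells of P0, P3 and P7 7.08 to 13.4.

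Dscam was sparse and also neuronal, and among neuronal stages it was highest in mature neurons. Mature neurons had 26.1, 22.8, 23.1 and 21.8 CPM at P0, P3, P7 and P21, from 35, 36, 38 and 78 UMIs. Immature neurons had 8.44, 13.4, 14.1 and 10.0 CPM, and transitional neurons 12.5, 8.78, 10.8 and 9.10. The mature range lay above the ranges of immature and transitional neurons, which overlapped each other. Dscam rose from immature to mature neurons by 1.19 (SE 0.28, edgeR adjusted p = 0.00103) and from transitional to mature neurons by 1.27 (SE 0.31, edgeR adjusted p = 0.00349). Between immature and transitional neurons the difference was -0.08 (SE 0.33, edgeR adjusted p = 0.875). With gates on thinned cells the fitted difference between immature and transitional neurons was 1.24. Fewer members were then called from transitional to mature neurons, so the step of the Dscam rise depended on how the gates were set. Transitional gates were deeper, with median UMIs per cell of 4574.5 to 7600 beside 3872 to 4474 in mature gates. The stages of the Cntn4 and Dscam rises were not compared by a test. From precursors to immature neurons Dscam rose by 3.55 (SE 0.51, edgeR adjusted p = 1.93e-06), against 5 UMIs in all precursors.

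No Dscam UMI was found in horizontal basal cells of 4 libraries, in leukocytes of 4, or in glia and mural cells of 3. Microvillar cells held 3 Dscam UMIs, and sustentacular and stromal cells 2 each. The interval of the ratio to mature neurons excluded 1 in 0 of 4 libraries for microvillar cells and in 1 of 3 for glia. The horizontal basal cells held 1732457 UMIs in all, so that 3 counts would be 1.73 CPM, and mature neurons were at least 13.2-fold higher. Against glia, with 438187 UMIs, the bound was at least 3.48-fold. edgeR called both differences, but Dscam passed the filter on low counts only through mature neurons, so these calls add nothing to the bounds.

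**Figure D3:**
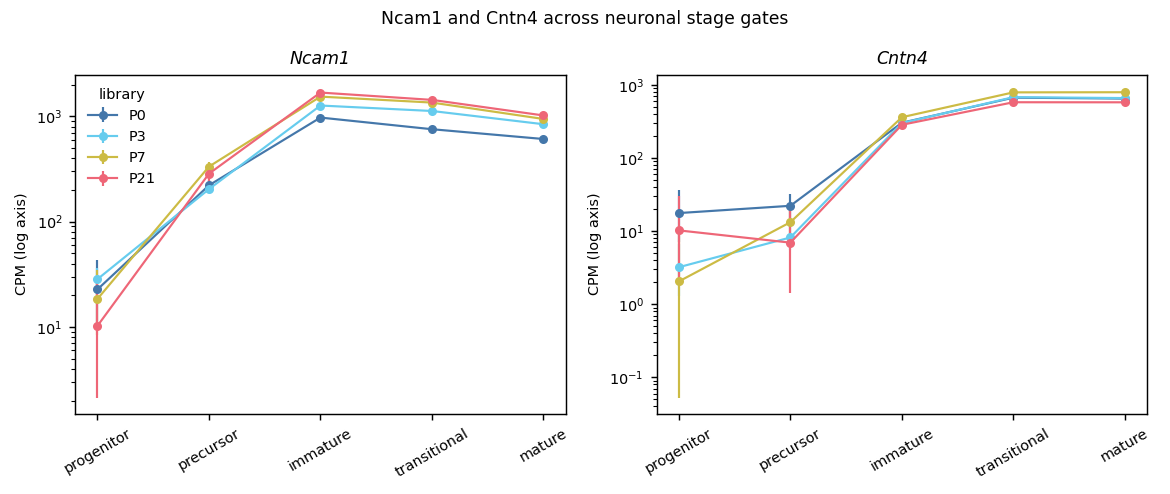
Ncam1 and Cntn4 in CPM (log axis) along the 5 neuronal stages (horizontal axis), 1 line per library, with 95% Poisson intervals. Ncam1 is highest in immature neurons in 4 of 4 libraries and Cntn4 in transitional or mature neurons, with the step from precursor to immature the steepest for Cntn4.

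Across the stages, the 6 genes gave the following counts. From immature to mature neurons 2 members rose (Cntn4, Dscam), 1 fell (Ncam1), 1 did not pass (L1cam), and Nrcam and Chl1 had too few counts to be tested, against a background of 29.0% higher and 28.5% lower. From precursors to immature neurons 4 of the 4 tested rose, against a background of 32.7% higher and 31.4% lower. From progenitors to precursors 2 rose (Ncam1, L1cam), against 19.9% higher and 17.6% lower. The L1cam call there rested on few UMIs, and the interval of its CPM ratio included 1 in every library. From immature to transitional neurons 1 rose (Cntn4), against 20.7% higher and 18.4% lower. From transitional to mature neurons 1 rose (Dscam) and 1 fell (Ncam1, by 0.35 on the log2 scale, SE 0.09, edgeR adjusted p = 0.0075), against 12.8% higher and 12.2% lower. The Ncam1 call of that last step was lost with DESeq2, without the library block and without the P7 library (adjusted p = 0.076, 0.252 and 0.0851, the last by edgeR).

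Over sums of at least 20 cells, 43 in all, the levels of Cntn4 and Dscam (log2 of CPM plus 10) had a Pearson r of 0.85, Ncam1 and Cntn4 0.84, Ncam1 and L1cam 0.69, and L1cam and Chl1 0.50. Nrcam and Ncam1 had -0.19. The sums share libraries and cell types, so these are descriptions. Few of the 43 sums held at least 20 UMIs of L1cam (10), Dscam (6), Nrcam (3) or Chl1 (0). Ncam1 alone of the 6 had enough counts for a search over 6829 genes, and those with the most similar pattern were Scg3, Syt11 and Fam134b (r = 0.93 for each).

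Relatives and partners of these genes, 57 in 5 lists, moved in both directions between immature and mature neurons. Of 37 tested, 16 rose and 14 fell, with a median of -0.02 on the log2 scale, as over all genes (-0.02). Of 19 tested relatives in the immunoglobulin superfamily, 7 rose and 7 fell. Kirrel2 and Kirrel3, known for the sorting of olfactory axons, had the largest rises of these relatives, by 3.93 (SE 0.21, edgeR adjusted p = 1.73e-13) and 3.33 (SE 0.22, edgeR adjusted p = 5.95e-12). Kirrel2 stood at 21.8, 20.1, 12.1 and 12.9 CPM in immature and 184, 178, 225 and 622 in mature neurons. Negr1, a lipid-anchored relative, rose by 3.28, and Nptn, neuroplastin, by 1.85. Alcam, an adhesion molecule of growing axons, fell by 2.61, from 12.9 to 27.7 CPM in immature neurons to 2.24 to 4.25 in mature neurons. Cadm2 fell by 3.45 and was sparse, with 53 UMIs in immature neurons and 4 in mature neurons.

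Of the 4 tested partners of Ncam1, 3 fell and 1 rose. St8sia2, which adds polysialic acid to Ncam1, fell by 2.29 (SE 0.55, edgeR adjusted p = 0.00117). It stood at 4.44, 7.05, 11.7 and 10.0 CPM in immature neurons of P0, P3, P7 and P21 and at 2.99, 1.26, 1.82 and 0.558 in mature neurons, which held 2 to 4 UMIs per library. The ranges did not overlap. St8sia4, the other enzyme of that kind, had too few counts to be tested, with 1 UMI in the mature neurons of all libraries. Gfra1, a receptor for glial cell line-derived neurotrophic factor, fell by 2.31, and Fyn, a kinase downstream of Ncam1, fell by 1.78. Prnp, the prion protein, rose by 1.17.

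Partners of the L1 family divided evenly, with 4 of 9 higher and 4 lower in mature neurons. Ank2 and Ank3, the ankyrins that hold L1 molecules to the membrane skeleton, rose by 0.40 and 0.56. Ezr, the linker ezrin, fell by 2.11 and Itgb1, an integrin chain, by 1.41. Of the contactin partners all 4 that could be tested rose: Aplp2 by 1.29, Aplp1 by 0.90, Ptprg by 0.49 and App by 0.23. The background of 29.0% higher applies to each of these lists, whose genes were counted and not tested as lists.

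Between P0 and P21, Ncam1 was the member that passed the rule of at least 1.5-fold with an interval excluding 1 in mature, immature and transitional neurons. At P21 it was 1.67-fold above P0 in mature neurons (1.55 to 1.81), 1.73-fold in immature neurons (1.61 to 1.86) and 1.90-fold in transitional neurons (1.74 to 2.07). The median gene was at 1.08, 1.02 and 1.03-fold in these gates. By the same rule, 14.2% of 9818 genes were higher at P21 and 8.20% lower in mature neurons, 7.38% and 5.96% of 8450 in immature neurons, and 9.77% and 6.70% of 6908 in transitional neurons. Against P3, Ncam1 at P21 stood at 1.21-fold in mature neurons (1.14 to 1.29), 1.33-fold in immature (1.24 to 1.42) and 1.27-fold in transitional neurons (1.19 to 1.37). Against P7, mature neurons of P21 stood at 1.08-fold (1.02 to 1.15), immature at 1.09-fold (1.02 to 1.17) and transitional at 1.06-fold (0.978 to 1.15). No comparison with P3 or P7 reached 1.5-fold, and in each of these gates the level was higher in each later library. In precursors the P21 to P0 ratio was 1.29 (1.03 to 1.60), below the 1.5-fold rule, where 5.59% of genes were higher and 5.93% lower.

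Cntn4 in mature neurons of P21 was at 0.889 of P0 (0.821 to 0.964), 0.875 of P3 (0.812 to 0.944) and 0.728 of P7 (0.679 to 0.781). These intervals exclude 1, and none of the 3 ratios reached 1.5-fold in size. Dscam stood at 0.833 of P0 (0.552 to 1.28) and L1cam at 1.23 (0.739 to 2.15) in the same cells, differences not detectable at these counts. In mature neurons Kirrel2 was 3.39-fold above P0 at P21 (2.97 to 3.88), and 7 of 30 measured list genes were higher and 1 lower by that rule, beside 14.2% and 8.20% of all genes.

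Individual mature neurons mostly held low counts of Ncam1 and Cntn4. After thinning each cell to 1500 UMIs, Cntn4 was detected in 64.1%, 66.2%, 69.9% and 57.6% of mature neurons at P0, P3, P7 and P21, and in 31.3%, 31.1%, 40.5% and 30.7% of immature neurons. Before thinning, 92.6% of mature neurons at P0 and 84.8% at P21 had a Cntn4 UMI. Ncam1 was detected in 55.2%, 74.9%, 70.6% and 74.4% of thinned mature neurons and in 73.4%, 84.0%, 85.7% and 85.1% of immature ones. Stromal cells of P0, P3 and P7, at the same depth, had Cntn4 in 0.826% to 3.12% and Ncam1 in 6.68% to 13.3%, and the neuronal shares lay above all of these. The stage order in these shares was that of the CPM.

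The variance over the mean of UMIs per thinned cell, which is 1 when only counting varies, was 1.11 to 1.32 for Cntn4 and 1.30 to 1.71 for Ncam1 in mature neurons of the 4 libraries. Omp, at the same thinning, gave 1.34 to 1.49 and Kirrel2 1.12 to 1.93. Thinned to 2500 UMIs, Cntn4 gave 0.955 to 1.38 and Ncam1 1.2 to 1.84, so the excess of Cntn4 over counting did not hold in every library. In immature neurons Ncam1 reached 2.92 at P7, where 1 cell held 28 UMIs. Cntn4 and Ncam1 were not mutually exclusive: at P21, 79.1% of the 444 mature neurons with a Cntn4 UMI also had Ncam1, beside 68.2% of the 327 without. At P7 the shares were 70.6% and 70.4%. Kirrel2 was found in 50.9% of the P21 cells with Cntn4 and 51.7% of those without.

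**Figure D4:**
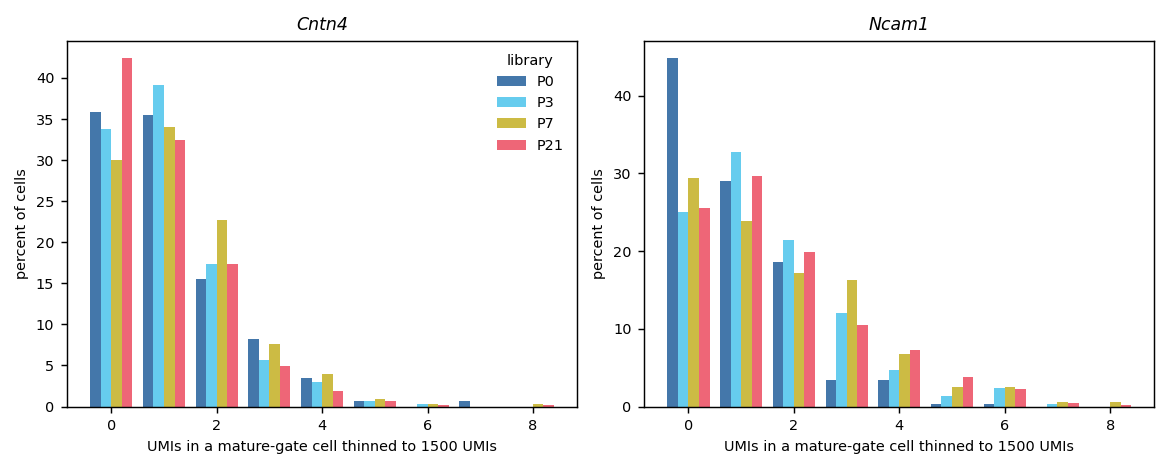
Percent of mature neurons (vertical axis) by the number of Cntn4 or Ncam1 UMIs they hold after thinning to 1500 UMIs per cell (horizontal axis), with 1 bar per library. Most cells hold 0 to 2 UMIs of each gene, and cells without Cntn4 make up 30.1% to 42.4% of a library.

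Mature neurons were also divided by Nqo1, an enzyme of the dorsal zone, into cells with at least 2 Nqo1 UMIs (150 to 266 per library) and cells with none (114 to 483). None of the 4 members tested passed edgeR, none had an unadjusted p under 0.05, and DESeq2 called none. The background was 2.13% higher and 2.37% lower of 7473 genes. Cntn4 differed by 0.11 on the log2 scale (SE 0.06, edgeR adjusted p = 0.417), higher in the Nqo1 cells of 4 of 4 libraries with ratios of 1.01 to 1.07, all with intervals that include 1. Ncam1 gave 0.811 (0.725 to 0.908) at P3 and 1.09 (1.02 to 1.17) at P21, opposite directions that leave a fitted difference of -0.02 (SE 0.06, edgeR adjusted p = 0.956). L1cam gave 0.512 (0.176 to 1.44), 0.827 (0.362 to 1.94), 2.01 (0.930 to 4.68) and 1.74 (1.01 to 3.00) in P0, P3, P7 and P21, from 8 to 30 UMIs a side, with a fitted difference of 0.41 (SE 0.28, edgeR adjusted p = 0.544).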

How the data were processed

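The authors deposited 4 tables of UMI counts per gene and cell, not normalized; per the labels' protocols, cells of each sample went through a Chromium 3' v2 kit and HiSeq 2500 sequencing, and Cell Ranger 2.1.1, Seurat and mm10 are listed in the submitters' processing notes. For counting, neither annotation nor strand use is given in the sources used here. Cells with at least 500 genes and at most 10% mitochondrial and 10% haemoglobin UMIs were kept (17 of 9126 removed). Doublets were not called. Non-neuronal cells that also met the rule for Omp, for Neurod1 plus Neurog1 or for a further neuronal marker were left out. A cell that met more than 1 non-neuronal list stayed in that of the largest sum, and Gap43 alone removed no cell. Stage gates needed at least 3 UMIs and 500 CPM of Omp or Gap43, or 2 UMIs of Neurod1 plus Neurog1, and other gates 3 markers and 5 UMIs of a list. UMIs were summed per library and gate (at least 20 cells) and tested with edgeR 4.0.16 (TMM, filterByExpr, library as block; DESeq2 1.42.0 as an alternative), so the 4 libraries of different age are the replicates; whether a library holds several mice is not given. Age ratios have exact conditional binomial 95% intervals and no test. The fit was tested on simulated data with known changes. Named genes are the 6 members, the 10 list genes of largest absolute change among those called between mature and immature neurons, other list genes that illustrate a count (chosen after their values were seen), and for each member with enough counts the 3 genes of highest correlation. The members and lists were chosen with earlier results of these data known. Alternatives varied scaling, filter, block, gates, thinning, depth, libraries and shared barcodes. Protein sequences were not used here. Some marker genes used for the gates are not reported here.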

Additional observations from a re-analysis of the deposited data

Results flagged for a closer look

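Cells that met no marker rule, 88 to 557 per library, were in no comparison and held neuronal transcripts. Their Ncam1 level in P0, P3, P7 and P21 was 596, 713, 1056 and 739 CPM, above the precursors of every library by 2.59 to 3.5 times, with intervals excluding 1 in 4 of 4 libraries. Their Cntn4 level was 56.4 CPM at P3 and 73.5 at P7, above stromal cells of the same libraries (7.08 and 7.22 CPM). The same cells held Stmn2, a gene of growing neurons, at 1461 to 2351 CPM, and Neurod1 at 6.04 to 27.4 CPM where precursors held 943 to 1476. Tex15 stood at 410 to 629 CPM in them, above precursors (25.1 to 69.3) and immature neurons (76.4 to 159). They made up 13.3% of all cells and held 10.5% of the Ncam1 UMIs. The step from precursors to immature neurons leaves these cells out, and their stage was not tested.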

How the results depend on the processing

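The counts of called members from immature to mature neurons (3), from precursors to immature neurons (4), between glia and mature neurons (5), between horizontal basal cells and mature neurons (5) and by zone (0) were the same under every alternative run. From progenitors to precursors the count of 2 was 1 with stricter gates, with only the 2 gates fitted, and 1 to 2 on leaving out libraries. From immature to transitional neurons it was 2 with only the 2 gates fitted. From transitional to mature neurons it was 1 with DESeq2, without the replicate block and with gates on thinned cells, and 1 to 2 on leaving out libraries. The block changed no other call. The cause of these changes was not tested.

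Between ages, the count of 1 in mature, immature and transitional neurons was 0 with P3 or P7 in place of P0, and 2 in mature and transitional neurons with no 1.5-fold minimum. In precursors the count of 0 was 1 with no minimum, with median-of-ratios scaling and without the deepest cells.

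Signs turned only in differences that were not called. For immature to transitional neurons, Dscam was -0.33 to 0.15 on leaving out libraries, 0.38 with stricter gates and 1.24 with gates on thinned cells, where L1cam was 0.11. For transitional to mature neurons, Cntn4 was -0.0027 with stricter gates and -0.024 with gates on thinned cells, where L1cam was -0.26. By zone, Ncam1 was 0.011 without a filter on low counts, 0.0096 with 1 Nqo1 UMI and -0.11 to 0.062 on leaving out libraries, and Dscam -0.19 to 0.038. In log2 age ratios, L1cam of mature neurons was -0.29 against P7, and that of immature neurons -0.54 against P3, -0.76 against P7 and -0.022 without the deepest cells. Cntn4 of immature neurons was 0.014 with stricter gates, and Ncam1 of precursors -0.22 against P7.

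Shares of mature neurons with a UMI depend on depth. Thinned to 1000 UMIs, Ncam1 was in 44.7% at P0 and 65.5% at P21 and Cntn4 in 49.5% and 42.0%; not thinned, Ncam1 was in 85.8% and 97.0% and Cntn4 in 92.6% and 84.8%. Over all genes, zone calls (159 higher, 177 lower) were 47 and 47 with DESeq2, 18 and 29 without the block, 105 and 91 without P7, and 416 and 488 without a filter. With gates on thinned cells, progenitor to precursor calls (2166 and 1918) were 1355 and 831, immature to transitional calls (2257 and 2007) 1074 and 831, and transitional to mature calls (1392 and 1333) 525 and 415; the last were 711 and 722 without the block. Chl1, Nrcam and Dscam rest on 126, 352 and 394 UMIs in all, which limits what can be seen of them outside their main cell type.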
